A study of Homo sapiens with 2 samples.

Results

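The 10 genes described here, CDX1, CDX2, ELF3, KLF5, VIL1, LGALS4, MUC1, EPCAM, CDH17 and CEACAM5, are commonly used to describe the identity of intestinal epithelium. They were taken as a list of names, out of 23049 genes named in the data, and not by their values. Earlier results of these data were known when the list was chosen. Each gene was followed through its RefSeq transcript models and through assembled models that share an exact intron with them on the same strand. This gave 36 models in each library, of 66412 in the control library and 67822 under the knockdown label. Signal was present on 13 of the 36 models in the control library and on 12 in the other.

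The data are RNA-seq of polyadenylated RNA from 2 HCT116 cultures. HCT116 is an established human cell line from a colorectal carcinoma. Both cultures carried a tetracycline-inducible construct against USP49, an enzyme that removes ubiquitin from histone H2B, and were grown with blasticidin and puromycin. One library was labelled control and the other USP49 knockdown, with harvest 36 h after doxycycline given in the protocol text of both. For the RNA control the labels do not say whether the cells were left uninduced. Each group held 1 library of a single line, so no difference below has a replicate check, no p-value was computed, and the intervals cover counting error only.

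In the intestine, CDX1 and CDX2 are homeodomain transcription factors that set and hold the intestinal programme, and they act on genes of differentiated cells such as LGALS4, CDH17 and VIL1. ELF3, an ETS factor of epithelia, and KLF5, a zinc finger factor of proliferating crypt cells, take part in the growth and differentiation of the same epithelium. VIL1 (villin) bundles actin in the microvilli of the brush border, and LGALS4 (galectin-4) is a lectin of the apical membrane. EPCAM and the liver-intestine cadherin CDH17 are adhesion molecules, CEACAM5 is carcinoembryonic antigen, and MUC1 is a membrane mucin.

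Levels are given as FPKM, fragments scaled by model length and by depth, summed over the models of a gene. The fragment total used for depth was 16378662 in control and 19960296 under the knockdown label. The targeted gene itself did not settle the labels. USP49 was at 2.88 FPKM in control (interval 2.23 to 3.54) and 1.10 under the knockdown label (0.839 to 1.37) by the sum. On its RefSeq exons the values were 0.902 and 1.10 FPKM. The depth-scaled fragment ratio there was 1.20 (exact 95% interval 0.820 to 1.78), which gives no direction beyond counting error. The 2 measures rest on different models. In control 2 assembled models that ran 4172 bases past the RefSeq end held all 206 fragments. Of their 3864 and 5373 bases, 369 and 2098 lie on RefSeq exons, so the exon measure kept 46.5 of these fragments. Under the knockdown label the RefSeq model, at 0 in control, held all 69 fragments. Values under the knockdown label therefore belong to the library so labelled, and not to a measured loss of USP49.

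The 10 genes fell into 2 sets of 5 that were the same in both libraries. EPCAM, ELF3, KLF5, CDX2 and MUC1 were each above 4 FPKM in both. LGALS4, CDH17, CDX1, VIL1 and CEACAM5 were each at 0.1 FPKM or below in both, and the last 3 were listed at 0. Among all 23049 genes 49.6% had a mean below 1 FPKM and 30.8% were listed at 0 in both libraries; among the 18701 protein-coding genes the shares were 40.4% and 22.1%. The 5 of 10 and 3 of 10 seen here stand close to these shares. Set against its label, the list held CDX2 and the general epithelial genes EPCAM, ELF3, KLF5 and MUC1 above 1 FPKM, and CDX1 and the brush border genes VIL1 and LGALS4 at or near 0.

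**Figure D1:**
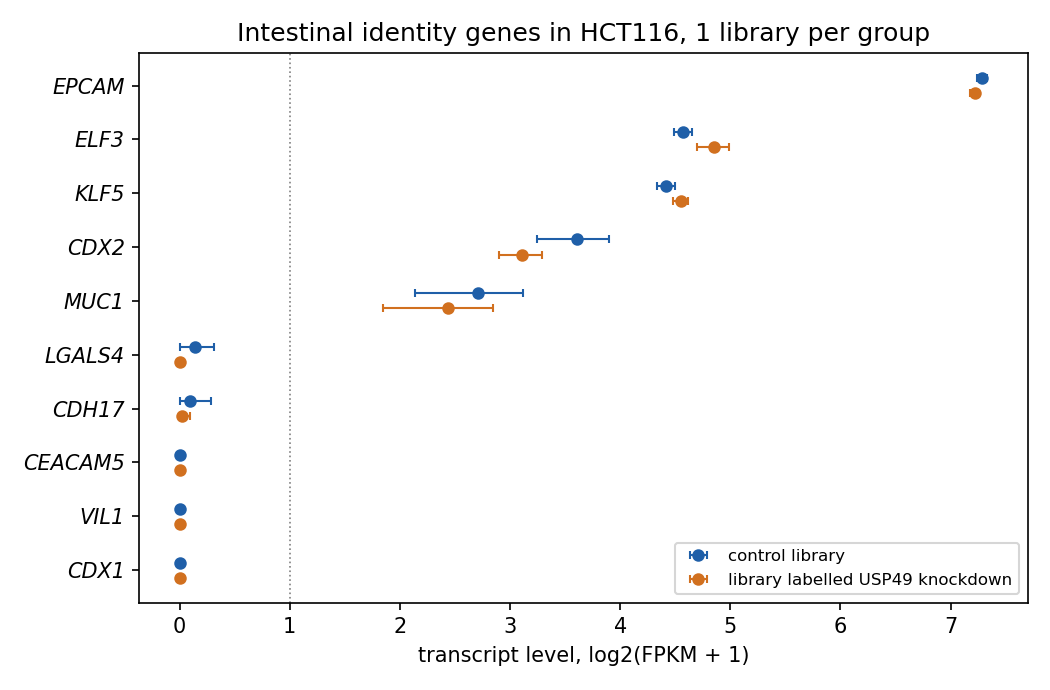
Level of each of the 10 genes as log2(FPKM + 1), the sum over named models, in the control library (blue) and the library labelled USP49 knockdown (orange); bars are the deposited intervals (2 Poisson SD) scaled to depth, and the dotted line marks 1 FPKM. EPCAM stands alone at the top, 4 genes lie between 4.40 and 27.9 FPKM, and the 5 at the bottom lie at or near 0.

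CDX2 was the intestinal master factor that these cells transcribed. Its locus is chromosome 13 (minus strand), 27434205 to 27441505 (hg18, the build of the files, as for all positions of models). Its sum was 11.2 FPKM in control (8.48 to 13.9) and 7.61 under the knockdown label (6.47 to 8.76). The value under the knockdown label was lower, with intervals that overlap, and the log2 ratio was −0.50 with a pseudocount of 1. Measured as the density of fragments on the RefSeq exons, from models of either strand, the values were 8.49 and 7.61 FPKM, a log2 ratio of −0.14. With fragments spread evenly along each model, those exons held 318 and 350. After scaling to depth this is a ratio of 0.903 (exact 95% interval 0.774 to 1.05).

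Different models carried CDX2 in the 2 libraries. In control, the RefSeq model held 170 fragments and 2 assembled models held 88.2 and 62.3, both ending 304 bases short of the RefSeq end. The model with 88.2 fragments lacks the long first exon: it begins with an exon of 23 bases lying 1651 bases inside the RefSeq start, and its first intron, at 27437153 to 27439831, is not in RefSeq. At 4.81 FPKM it gave the largest single share of the control sum. No model under the knockdown label had that exon. There the RefSeq model held 295 fragments and an assembled model with the same 2 introns held 76.6 and ran 923 bases past the RefSeq end. The value of an intron below is the summed FPKM of the models that hold it, and not a count of reads across it. The intron shared by every CDX2 model, at 27435507 to 27437006, carried the gene's whole sum in both libraries, whereas the intron to the long first exon carried 6.39 FPKM in control and 7.61 in the other, a log2 ratio of 0.22. With the RefSeq model alone the ratio was 0.43. The sign for CDX2 thus followed the choice of models.

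CDX1, the close relative of CDX2, lies at chromosome 5 (plus strand), 149526537 to 149544314. Its 1 RefSeq model, of 1772 bases, was listed at 0 in both libraries. A RefSeq model can be listed at 0 because an assembled model took its fragments, so models of any name and strand over its exons were counted too. None with signal lay over CDX1, VIL1 or CEACAM5 in either library. Of the 7107 genes listed at 0 in both libraries, 1247 (17.5%) did have such a model over their exons. CDX2, in contrast, lay above 40.3% of the 11623 genes averaging at least 1 FPKM in control and above 30.1% under the knockdown label.

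ELF3 was the highest of the 4 transcription factors by the sum. It lies at chromosome 1 (plus strand), 200246313 to 200252938. The sum was 22.8 FPKM in control (21.4 to 24.1) and 27.9 under the knockdown label (25.02 to 30.8). These intervals do not overlap, as in 20.2% of the 11623 genes measured, and the log2 ratio was 0.28. On RefSeq exons the direction turned: 21.99 FPKM in control and 19.7 in the other, a log2 ratio of −0.15. Its fragments numbered 1152 and 1251, a depth-scaled ratio of 0.891 (0.822 to 0.966). So ELF3 was higher under the knockdown label by the sum and lower by its fragments. An opposite sign under these 2 measures was found for 20.0% of the 11404 genes that both could measure.

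The models show where the ELF3 values part. Control held a single model with signal, the RefSeq model of 9 exons and 3133 bases. The library labelled knockdown split the gene between this model, with 1021 fragments, and an assembled model of 1061 bases, with 230 fragments or 18.4% of the total. The assembled model joins the first exon directly to the third over an intron at 200246458 to 200247707 that is not in RefSeq, leaves out the second exon of 171 bases, and ends 1901 bases short of the RefSeq end. Being short, it counted for 11.3 FPKM, against 16.6 for the RefSeq model. The skip was called in 1 library only, and the assemblies hold no read positions with which to count the junction in the other. The second RefSeq model of ELF3 was listed at 0 in both.

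KLF5 was carried by 1 model of 4 exons in both libraries, so its measures coincide. Its locus is chromosome 13 (plus strand), 72531143 to 72549677. Its level was 20.4 FPKM in control (19.2 to 21.6) and 22.4 under the knockdown label (21.3 to 23.6), with overlapping intervals and a log2 ratio of 0.13. From 1103 and 1479 fragments the depth-scaled ratio was 1.10 (1.02 to 1.19), above 1 beyond counting error. Of 12077 genes measured on exons, 13.0% had an interval above 1 and 14.1% one below, so 27.2% left out 1 in either direction, in 1 library against 1.

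The brush border genes of the list were at or near 0. VIL1, at chromosome 2 (plus strand), 218992082 to 219022492, was listed at 0 in both libraries on its 1 RefSeq model of 20 exons. Villin is a structural protein of the brush border, and other genes of that structure were measured in the wider list below. LGALS4, at chromosome 19 (minus strand), 43984151 to 43995580, had 2 fragments in control, or 0.0991 FPKM, and was listed at 0 in the other. At this depth 2 and 0 fragments cannot be told apart, since the exact interval of the ratio ran from 0 to 4.37.

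Surface and adhesion genes spanned the whole range. EPCAM lies at chromosome 2 (plus strand), 47449791 to 47467671, and was the highest member by far. Its level was 155 FPKM in control (151 to 160) and 148 under the knockdown label (144 to 152), with overlapping intervals and a log2 ratio of −0.07. Only its RefSeq model of 9 exons carried signal, with 4253 and 4942 fragments, so no choice of models enters. The depth-scaled ratio was 0.953 (0.915 to 0.994), the narrowest interval of the list. EPCAM ranked 309th from the top among the genes measured in control and 331st in the other, and lay 6.82 times above ELF3 in control and 5.31 times in the other.

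MUC1, at chromosome 1 (minus strand), 153424924 to 153429330, was the lowest of the 5 genes present. Its sum was 5.53 FPKM in control (3.39 to 7.68) and 4.40 under the knockdown label (2.60 to 6.21), a log2 ratio of −0.27, and the intervals overlap. On RefSeq exons it was 4.08 and 3.31 FPKM, a log2 ratio of −0.24. From 120 and 116 fragments on these exons, the depth-scaled ratio was 0.793 (0.609 to 1.03). Both measures put the knockdown label lower, within counting error.

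MUC1 had the most broken set of models. Of its 20 RefSeq models, 1 had signal in each library. It was the same model in both, with 9 exons and 1811 bases, and it held 68.2 fragments in control and 30.5 under the knockdown label. With this model alone the log2 ratio was −0.85. Control had 3 more models, all beginning 460 bases upstream of the RefSeq start, with 50.6, 22.9 and 17.3 fragments. The library labelled knockdown had 2 that begin 737 bases upstream, with 25.6 and 23.01 fragments, and 1 of 53.0 fragments that begins 1610 bases inside the gene. The last 3′ intron, at 153425310 to 153426324, is common to most of these models, and carried 3.49 FPKM in control and 3.51 in the other, a log2 ratio of 0.0042. The 2 introns on either side of the 29-base exon, at 153428095 to 153428322 and 153427688 to 153428065, stood at 3.49 and 1.40 FPKM each, a log2 ratio of −0.90. The first introns did not all go 1 way: that at 153428699 to 153429200 stood at 3.02 and 0.867 FPKM, and an alternative at 153428663 to 153429200 at 0 and 0.897.

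**Figure D2:**
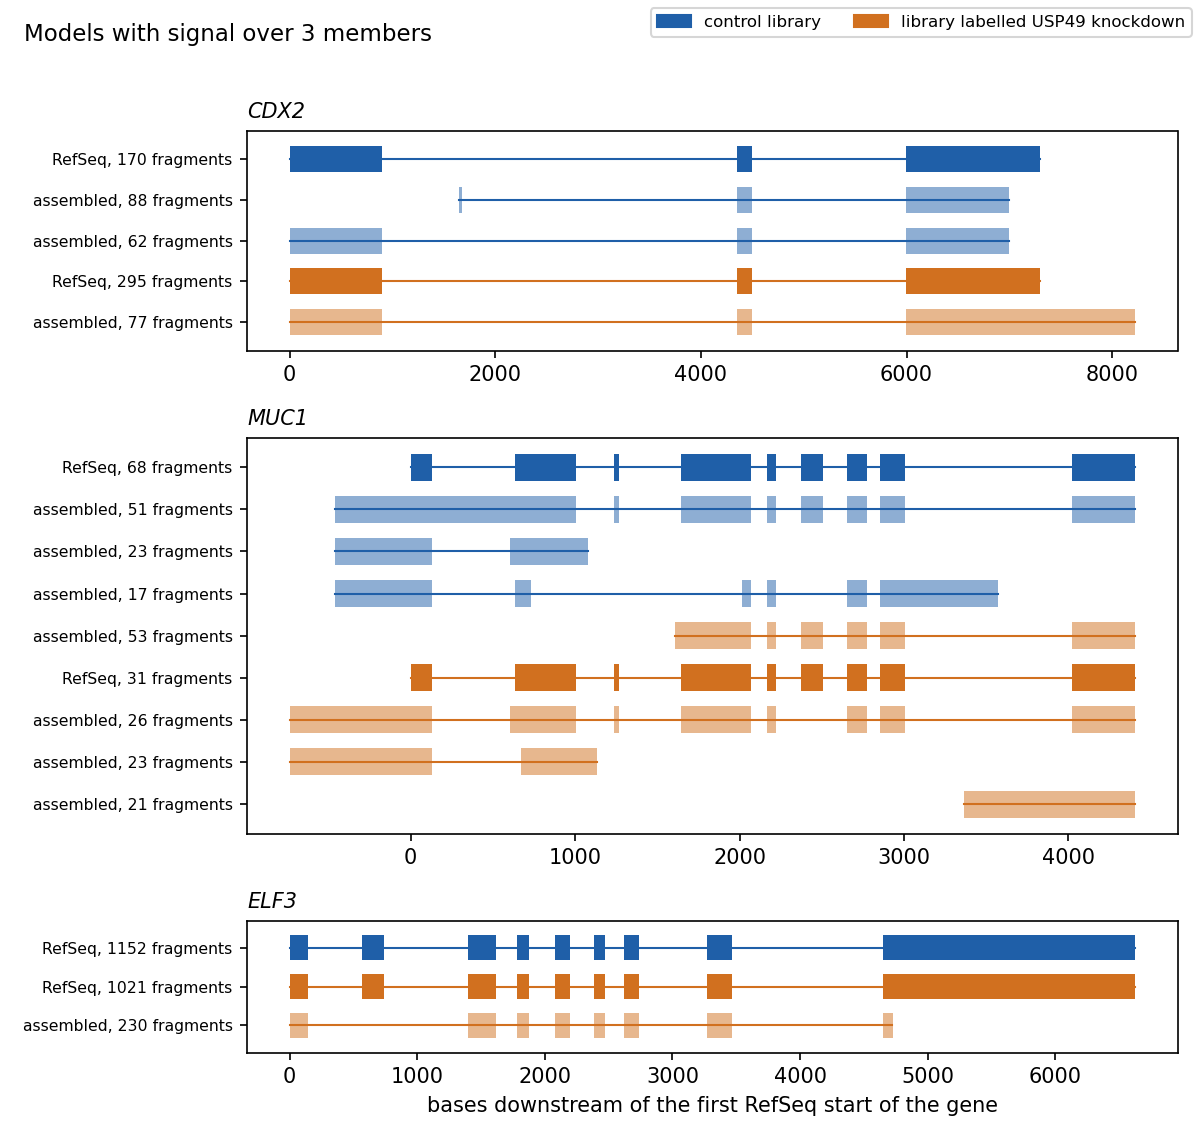
Models with signal over CDX2, MUC1 and ELF3 in the control library (blue) and the library labelled USP49 knockdown (orange), drawn to scale in bases from the first RefSeq start; boxes are exons, lines are introns, dark boxes are RefSeq models, light boxes are assembled models, and each row gives its fragments. The CDX2 model with a 23-base first exon is in control only, and the ELF3 model without the second exon is under the knockdown label only.

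CDH17 and CEACAM5 closed the list. CDH17, at chromosome 8 (minus strand), 95208570 to 95298707, had 4 fragments in control and 1 under the knockdown label, divided evenly between its 2 RefSeq models, at 0.0669 and 0.0137 FPKM. The ratio was 0.205 with an interval from 0.0042 to 2.07, which leaves no direction to read. CEACAM5, at chromosome 19 (plus strand), 46904370 to 46926277, was listed at 0 in both. It belongs to a multigene family with related sequences, and how reads shared between its members were counted was not tested, so its 0 is uncertain. Its relatives CEACAM6 and CEACAM7 were listed at 0 as well, and CEACAM1 stood at 0.0894 and 0.134 FPKM.

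The order of the levels was the same in both libraries down to MUC1: EPCAM, ELF3, KLF5, CDX2, MUC1. In control ELF3 and KLF5, at 22.8 and 20.4 FPKM, were not separated by their intervals, and on RefSeq exons KLF5 was the higher of the pair under the knockdown label, at 22.4 against 19.7 FPKM. Every other step down to LGALS4 or CDH17 lay outside the intervals by the sum in both libraries. From LGALS4 down no neighbours could be told apart.

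None of the 5 members measured was 2-fold or more higher or lower by the sum. Over all 11623 genes measured this way 1.58% were higher and 1.80% lower, 3.38% in all. As counts these are 184 higher and 209 lower, and with values as deposited, not scaled to depth, they were 297 and 161. On RefSeq exons of either strand none of the 5 passed 2-fold either, beside 0.306% higher and 0.489% lower (0.795% in all) of 12077 genes. With models of the gene's own strand alone it was again none of 5, beside 0.468% higher and 0.655% lower (1.12% in all) of 11749 genes. EPCAM and KLF5, 2 of the 5, rested on 1 model with signal in each library, as did 29.8% of the genes measured by the sum. The median log2 ratio of the 5 was −0.07 by the sum and −0.14 on exons, and that of all genes was −0.0016 and −0.0043. By the sum 2 members lay above 0 and 3 below, and on exons 1 above and 4 below. The extremes on exons, −0.24 for MUC1 and 0.13 for KLF5, lay inside the range from −0.31 to 0.25 that held the central 95% of genes. The depth-scaled fragment ratio left out 1 for 3 of the 5 (KLF5 above, ELF3 and EPCAM below), beside 27.2% of all genes. That share was not matched for fragment number, on which the width of an interval depends.

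**Figure D3:**
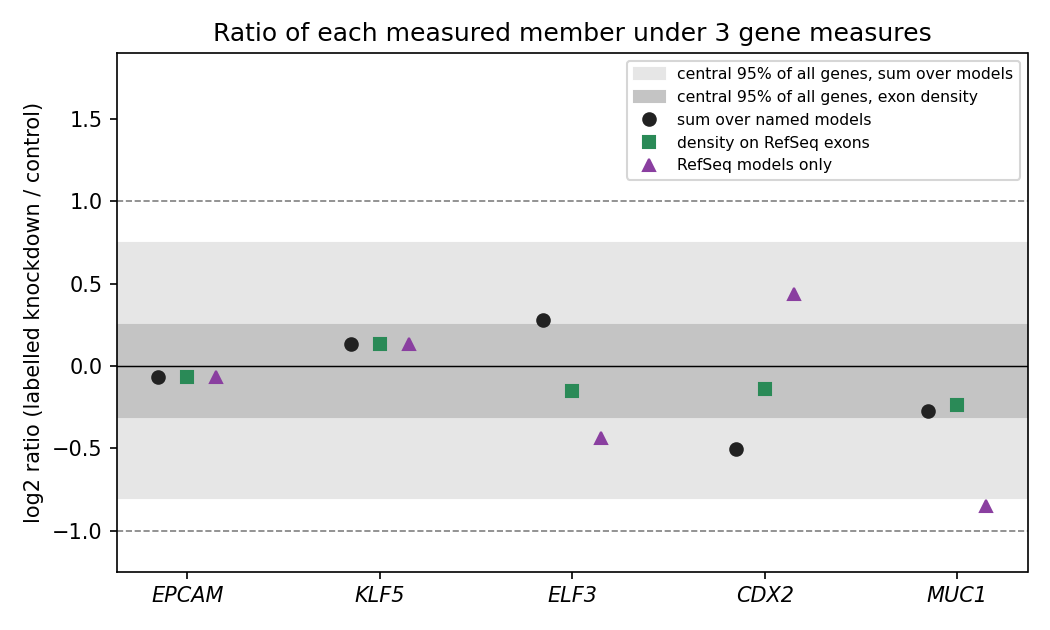
Log2 ratio of the library labelled USP49 knockdown over control for the 5 members measured, by the sum over named models (circles), the density on RefSeq exons of either strand (squares) and RefSeq models only (triangles); grey bands hold the central 95% of all genes and dashed lines mark 2-fold. EPCAM and KLF5 have 1 value under all 3 measures, whereas ELF3 and CDX2 change sign between them and MUC1 stays below 0.

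Promoter sequences were taken from RefSeq (GRCh38.p14) for the 6 members with an entry: CDX2, ELF3, KLF5, LGALS4, CEACAM5 and MUC1. CDX1, VIL1, CDH17 and EPCAM had none. The 250 bases before each start site were searched on both strands, as a description of letters and not of bound sites. The letters TTTAT, part of the sequence that CDX factors bind, are shown in capitals for CDX2, ELF3 and CEACAM5, since they occur in genes at 11.2, 22.8 and 0 FPKM in control alike. They read ATAAA where the match is on the other strand.
CDX2, chr13:27969316-27969565, minus strand: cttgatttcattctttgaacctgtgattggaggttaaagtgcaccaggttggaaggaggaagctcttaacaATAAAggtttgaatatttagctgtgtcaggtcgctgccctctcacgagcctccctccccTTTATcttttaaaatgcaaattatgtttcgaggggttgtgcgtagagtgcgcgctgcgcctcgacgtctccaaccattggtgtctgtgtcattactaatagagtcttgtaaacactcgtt
ELF3, chr1:202010337-202010586, plus strand: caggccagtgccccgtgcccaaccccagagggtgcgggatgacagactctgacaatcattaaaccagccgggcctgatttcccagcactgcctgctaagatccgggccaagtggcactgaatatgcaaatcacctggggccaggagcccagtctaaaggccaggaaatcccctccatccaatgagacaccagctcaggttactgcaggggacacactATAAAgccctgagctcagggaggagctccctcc
CEACAM5, chr19:41708376-41708625, plus strand: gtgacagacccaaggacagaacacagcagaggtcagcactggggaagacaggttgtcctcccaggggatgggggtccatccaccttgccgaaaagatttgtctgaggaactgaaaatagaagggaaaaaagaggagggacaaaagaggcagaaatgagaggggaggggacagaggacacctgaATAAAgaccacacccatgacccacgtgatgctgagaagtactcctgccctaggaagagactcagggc

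CDX2 held TTTAT at 2 places, 175 to 179 and 116 to 120 bases before the start. ELF3 held it 29 to 33 bases before the start, within the TATA box letters TATAAA, and CEACAM5 63 to 67 bases before. MUC1 held it once too, also within TATAAA, and LGALS4 not at all. Of the 2 KLF5 windows, the one printed below held none and the other held it once, within TATAAA. Of all 35116 windows of this length in the table, 32.7% held TTTAT, with 19.97% of the windows of genes averaging at least 1 FPKM and 41.6% of those of genes listed at 0. The longer letters TTTATG were in none of the members' windows and in 9.64% of all, and the HNF4 letters AAAGTCCA in none and in 0.98%. The ETS letters GGAAGT were in the window of LGALS4 only, against 19.5% of all.

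KLF5 and MUC1 were the members with the letters CCGCCC, a GC box to which factors of the KLF family bind. KLF5 has 2 start sites in the table. The start used here lies 18534 bases from the end of the gene, against a span of 18535 bases for the KLF5 model that carried the signal, and the other lies 22563 bases from it. Capitals mark CCGCCC, or GGGCGG where the match is on the other strand.
KLF5, chr13:73058755-73059004, plus strand: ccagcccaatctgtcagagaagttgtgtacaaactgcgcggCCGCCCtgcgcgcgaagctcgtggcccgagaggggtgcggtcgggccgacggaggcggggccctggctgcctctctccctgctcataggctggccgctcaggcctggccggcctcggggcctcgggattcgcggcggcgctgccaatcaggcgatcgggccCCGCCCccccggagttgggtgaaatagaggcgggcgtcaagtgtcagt
MUC1, chr1:155192916-155193165, minus strand: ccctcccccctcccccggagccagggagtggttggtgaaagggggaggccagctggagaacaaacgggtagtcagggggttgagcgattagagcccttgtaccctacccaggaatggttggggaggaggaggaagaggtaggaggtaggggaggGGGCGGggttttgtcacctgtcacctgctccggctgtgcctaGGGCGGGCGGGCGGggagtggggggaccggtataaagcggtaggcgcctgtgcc

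In KLF5 the letters began 209 and 48 bases before the start, and in MUC1 there were 4 matches, 3 of which overlap. They were in 42.6% of all windows, in 65.0% of those of genes at 1 FPKM or more and in 31.0% of those of genes listed at 0. The CpG content differed widely among the members. This KLF5 window held 27 CpG pairs and the other KLF5 window 3. The window of CDX2 held 10 and that of MUC1 printed here 11, while ELF3 held 4 although it is transcribed at the level of KLF5. LGALS4 held 6 and CEACAM5 2. For CDX2 and MUC1 the start in the table lies 8398 and 7092 bases from the end of the gene there, against spans of 7301 and 4407 bases in the files, so their windows need not belong to the start of the models measured. The median was 11 over all windows, 21 for genes at 1 FPKM or more and 5 for genes listed at 0.

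A wider list of 76 intestinal epithelium genes was then read beside the 10, of which 75 were named in the files and MUC5AC was not. Of the 75, 45 (60.0%) had a mean below 1 FPKM and 20 (26.7%) were listed at 0 in both libraries. None of the 30 measured passed 2-fold by the sum, and none of 29 on exons. The median of their log2 ratios was −0.08 for the sum and −0.07 for exon density. On exons 10 lay above 0 and 19 below, in a range from −0.27 to 0.08. The fragment ratio had an interval below 1 for 7 of the 29 (24.1%) and above 1 for none, beside 14.1% and 13.0% of all genes. These ratios count models of either strand, which matters for ESPN and KRT18 among the 7, as given for each of them. The width of an interval depends on the fragment number, and the shares of all genes were not matched for it.

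**Figure D4:**
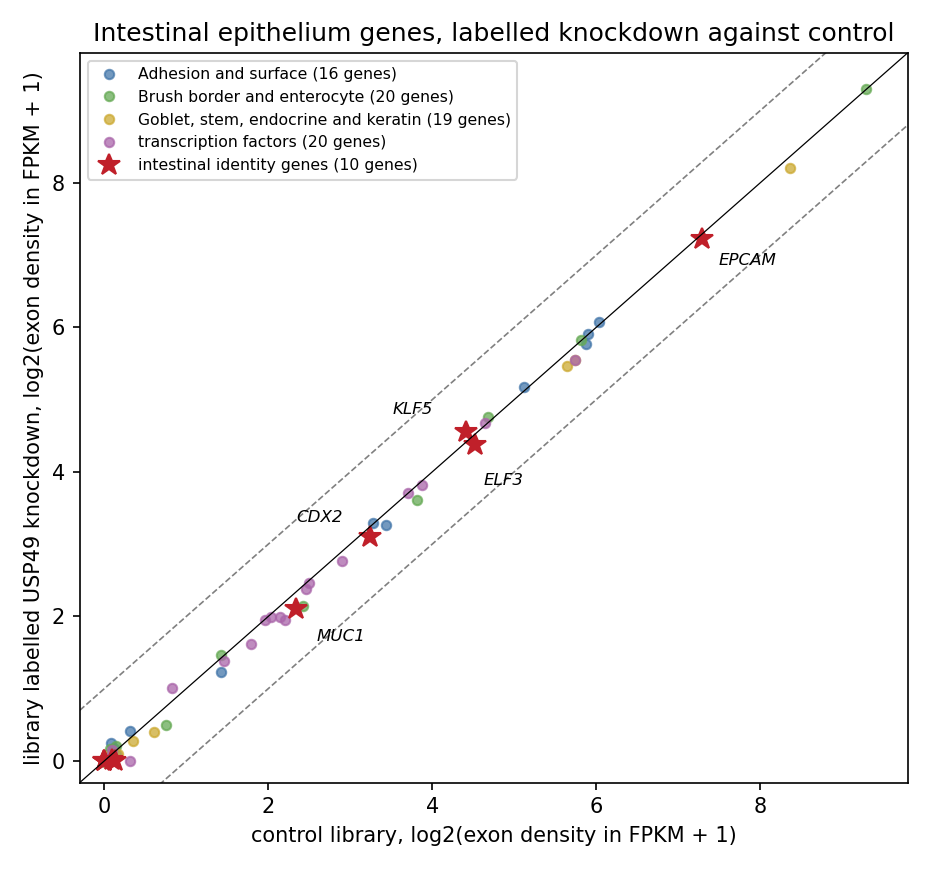
Density on RefSeq exons of either strand as log2(FPKM + 1), in the control library (horizontal) and the library labelled USP49 knockdown (vertical), for the 10 intestinal identity genes (stars) and the 75 genes of the wider list (dots); the solid line marks equal values and the dashed lines 2-fold differences of FPKM + 1. All points lie between the dashed lines, and 5 of the stars lie in the corner at or near 0.

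Of the 20 other transcription factors, 13 were measured, with a median of −0.11 by the sum and of −0.07 by exon density, where 11 lay below 0. The highest were SOX9, a factor of crypt stem and progenitor cells, at 52.4 and 45.8 FPKM (log2 ratio −0.19 by both measures), ELF1 at 26.7 and 24.5 FPKM (−0.12 and 0.03 by sum and exons), and the Notch target HES1 at 14.8 and 15.1 FPKM (0.03 and −0.06). The SOX9 fragment ratio was 0.874 (0.834 to 0.917), the only one of this group with an interval that left out 1. SOX9 thus ranked above ELF3, KLF5 and CDX2.

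Of the 20 other brush border and enterocyte genes, 7 were measured and 7 were listed at 0 in both. The highest were EZR (ezrin, which links actin to the membrane) at 663 and 682 FPKM (0.04 by the sum and 0.0079 on exons), CA2 (carbonic anhydrase) at 55.5 and 55.8 (0.0074 by both) and PLS1 (plastin of microvilli) at 27.5 and 29.2 (0.08 by both). The other 4 measured were ESPN (espin, which bundles actin) at 11.03 and 11.2 FPKM, USH1C (harmonin, of the links between microvilli) at 6.47 and 5.10, the peptidase DPP4 at 1.76 and 2.17, and the microvillar protocadherin CDHR5 at 1.48 and 0.705. Of the 6 measured on exons, the fragment ratio left out 1 for USH1C, at 0.789 (0.653 to 0.952), and for ESPN, at 0.856 (0.773 to 0.947). For ESPN that ratio counts models of either strand, and with models of the gene's own strand its log2 ratio was 0.02. CDHR5, with exon densities of 0.688 and 0.412 FPKM, fell below the minimum on exons and is not counted with these. Its log2 ratio was −0.54 by the sum, and its fragment ratio was 0.589 (0.349 to 0.982). FABP1, SI and ALPI, genes of absorptive cells, were among the 7 listed at 0.

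Among other adhesion and surface genes 7 of 16 were measured, with medians of 0.02 by the sum and 0.0061 on exons. CLDN7, a claudin that binds EPCAM, stood at 72.1 and 73.0 FPKM (0.02 and 0.0061), the lectin LGALS3 at 69.2 and 72.0 (0.06 by both) and the integrin ITGA6 at 65.0 and 66.7 (0.04 by both). EPCAM was therefore higher than each of them. CLDN4 stood at 57.8 and 48.9 FPKM (−0.24 by the sum and −0.10 on exons). Its fragment ratio was 0.930 (0.870 to 0.994), the only one of this group with an interval that left out 1. Only 3 of the 19 goblet, stem, endocrine and keratin genes were measured, all keratins of simple epithelia, and 8 were listed at 0. KRT19 stood at 329 and 296 FPKM, a fragment ratio of 0.898 (0.871 to 0.926). KRT8, at 56.8 and 51.1 FPKM, had a ratio of 0.884 (0.828 to 0.944). KRT18 stood at 47.6 and 47.9 FPKM by the sum but had a fragment ratio of 0.877 (0.812 to 0.947) with models of either strand. With models of its own strand alone, the exon density of KRT18 was 45.5 and 45.8 FPKM, a log2 ratio of 0.01. KRT20, the keratin of differentiated colonocytes, stood at 0.521 and 0.313 FPKM.

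Markers of other cell types were mostly at or near 0. Of 7 fibroblast markers 1 was measured, COL1A1 at 10.4 and 7.77 FPKM, with COL1A2, DCN and THY1 listed at 0 in both. Endothelial markers were all below 1 FPKM, with summed levels of 0.181 and 0.137, and of 4 hepatocyte markers only SERPINA1 was measured, at 1.82 and 2.18 FPKM. Of 6 leukocyte markers CD68 alone was measured, at 9.35 FPKM in control and listed at 0 in the other by the sum, but at 9.35 and 12.6 FPKM on exons of either strand, while PTPRC was listed at 0 in both. The part of other cell types in the values of the 10 genes was not tested.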

How the data were processed

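The deposited files are Cufflinks assemblies on hg18, 1 per library, per the labels. The submitters' processing notes also name TopHat, Bowtie, SAMtools, Picard and bedtools, with versions not given in the sources used here. In loci with 1 model the authors' deposited FPKM attributes and their intervals gave fragment numbers. These were whole, within 0.02, for 94.9% of 18291 loci in control and 94.5% of 19627 in the other library. A depth factor would cancel there, so these shares do not bear on depth. Unspliced assembled models aside, the length implied by FPKM fell a median of 47 bases short of the model in both libraries, with the same constant. The FPKM was therefore taken to hold no term for depth. The score column of the deposited files was read and not used for levels. Values were scaled to fragment totals recovered from these steps and from the deposited intervals of 2 Poisson SD. RefSeq models were named through the RefSeq gene table (39319 of 41157 by accession, 419 by the symbol in the files), and assembled models by an exact shared intron.

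The main value is the sum over the models of a gene, compared as a log2 ratio with a pseudocount of 1 FPKM for genes with a mean of at least 1 FPKM. Exon densities spread the fragments of each model evenly over its length, since no read positions are given, and used genes with at least 300 exonic bases. Fragment ratios have exact conditional (Clopper-Pearson) 95% intervals. They use the fragments spread in this way, rounded to whole numbers. The intervals do not cover how fragments were divided among models or placed along them. No strand-marking step is described in the labels. Calculations used Python 3.11.15, numpy 2.4.6, pandas 2.3.3 and scipy 1.17.1, and the scripts were tested on simulated data. The 10 genes, the wider list and the marker lists were chosen with earlier results of these data known. In the wider list the 3 genes highest in control in each group were named by rule, and others named there were chosen after their values were seen.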

Additional observations from a re-analysis of the deposited data

Results flagged for a closer look

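In the library labelled knockdown, 1 unspliced minus-strand model (hg18 chromosome 1, from 153424924 to 153425967) lay over the last exon of MUC1 without sharing an intron with it, so its fragments are not in the MUC1 sum. It held 20.5 fragments at 1.30 FPKM over 1044 bases, of which 386 lie on RefSeq exons of MUC1. No such model was present in the control library. The exon density of MUC1, 4.08 FPKM in control and 3.31 in the other, includes the share of these fragments that falls on its exons.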

How the results depend on the processing

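No member measured passed 2-fold in either direction under any of the settings run. The members measured numbered 5 in most settings, 7 with no minimum, 4 with a minimum of 5 FPKM and 3 with TPM over all models. The median log2 ratio of the members, −0.07, was −0.14 on exons of the gene strand or of either strand, 0.22 with values as deposited (where the median of all genes was 0.26) and 0.032 with a minimum of 5 FPKM. By member, ELF3 ranged from −0.44 to 0.56, CDX2 from −0.55 to 0.43, KLF5 from −0.0093 to 0.40, EPCAM from −0.20 to 0.22 and MUC1 from −0.85 to −0.04. EPCAM was above 0 only with values as deposited, where it lay below the median of all genes, and KLF5 was below 0 only with TPM over all models, where it lay above that median (−0.10). USP49, at −0.88 by the sum, was 0.15 on exons of the gene strand or of either strand, 1.07 with RefSeq models only and −0.12 with TPM over all models. The counts of all genes 2-fold higher and lower, 184 and 209 of 11623, were 55 and 77 of 11749 on exons of the gene strand. They were 37 and 59 of 12077 on exons of either strand, and 598 and 627 of 10681 with RefSeq models only. With TPM over all models they were 6 and 13 of 4547, and with a minimum of 5 FPKM 85 and 97 of 9226. They were 297 and 161 of 11624 with values as deposited. With TPM over models of at least 300 bases, an alternative chosen after seeing the data, they were 280 and 310 of 12451. In TPM over all models, 97.9% and 98.1% of the summed FPKM lay in models under 300 bases. The same minimum and pseudocount weigh more on the low values left there, so its counts are not a like comparison. No paired analysis was possible because each group held 1 library, and for the same reason no replicate could be left out.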
